A study of Mus musculus with 6 samples.

Results

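The genes described here encode the enzymes that remove or add acetyl and methyl groups on histones and related proteins: histone deacetylases (Hdac) and sirtuins (Sirt), lysine acetyltransferases (Kat), lysine demethylases (Kdm), SET-domain lysine methyltransferases with Dot1l, and protein arginine methyltransferases (Prmt, Carm1). The rule for members used gene names and no measured value, and took every gene of the deposited RNA-seq table whose symbol follows the naming series of these families. This gave 67 genes among 23235 rows of the table, and each of them had a single row. RNA came from E14Tg2a, a mouse embryonic stem cell line, at passages 37 to 40. The ESC group comprised 3 samples kept pluripotent with LIF (leukemia inhibitory factor), and the NC group comprised 3 samples of the same line after LIF was withdrawn and 1 μM retinoic acid (RA) was given for 48 h. The comparison asked which genes differ in mRNA level between pluripotent ESCs and cells driven towards a neuronal fate.

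Acetylation of histone lysines loosens chromatin and is read by bromodomain proteins, whereas histone methylation is read as active or repressive depending on the residue. H3K4 and H3K36 methylation mark active genes, and H3K9 and H3K27 methylation and H4K20 trimethylation mark silent chromatin. Retinoic acid receptors without ligand hold corepressor complexes that contain deacetylases, and ligand exchanges them for coactivators that include acetyltransferases and arginine methyltransferases. Pluripotent cells are known for open chromatin, and several H3K9 demethylases and methyltransferases are known regulators of the pluripotent state.

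Levels are FPKM, the number of fragments scaled to transcript length and to the number of mapped fragments, so levels of different genes can be set side by side. The authors deposited 1 FPKM value per gene and condition, estimated over the 3 samples, and no value of a single sample. The authors' own test of the conditions, made with Cuffdiff, was not used. For these reasons no SD, test or p-value is given. The differences have no replicate check here, and the depth behind each value is unknown. A gene was said to have risen or fallen when its NC and ESC values differed at least 2-fold and their mean was at least 1 FPKM, which 12784 rows reached. FPKM summed to 770592 in ESCs and 628679 in NCs, and the median log2 ratio of NC to ESC over these 12784 rows was -0.04. Scaling both conditions to the same total would add 0.29 to every log2 ratio, which turns the direction of 13 members with small negative log2 ratios (Hdac2, Hdac3, Sirt4, Sirt6, Kat8, Kdm1a, Kdm1b, Kdm6a, Setd1a, Setdb1, Setd8, Prmt1 and Carm1). Marker genes followed the RA treatment: all 12 pluripotency markers fell (Pou5f1 from 832 to 37.1 FPKM, Nanog from 225 to 13.9 FPKM) and all 7 RA-response markers rose (Cyp26a1 from 0.874 to 215 FPKM). The name NC goes further than the markers did. Of 10 neural progenitor markers, 6 rose (Sox1 from 1.77 to 21.8 FPKM, Pax6 from 3.64 to 65.2 FPKM). Of 10 neuron markers, 0 rose and 3 fell, but only 5 reached the mean of 1 FPKM, and 8 of 10 lay under 1 FPKM in NCs. Dcx (0.0140 and 0.334 FPKM) and Neurog1 (0.0958 and 0.710 FPKM) were higher in NCs but too low to be called. The other neuron markers had lower values in NCs. Neuronal Tubb3 was at 33.4 FPKM (ESC) and 7.54 FPKM (NC). Endoderm markers (5 of 7 rose, summed level 16.9 to 39.3 FPKM) and fibroblast or feeder markers (4 of 8 rose, 1 fell, summed level 21.8 to 47.7 FPKM) were also higher in NCs, with Afp below 0.1 FPKM and Lum listed at 0 in ESCs. None of the 6 mesoderm markers and 2 of the 6 trophoblast markers reached the mean of 1 FPKM, and those 2 fell. The part of such cells in the members' values was not tested, and in bulk RNA fewer cells of a type cannot be told apart from less RNA per cell.

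The enzyme genes were well expressed and most of them differed little between the conditions. Of the 67 members, 65 had a mean of at least 1 FPKM, with a median mean level of 21.1 FPKM against 11.8 FPKM over all 12784 genes. The remaining members were Kdm4d (0.145 FPKM in ESCs, 1.79 FPKM in NCs) and the Y-linked Kdm5d (0.488 and 0.586 FPKM). The most abundant member was Prmt1, at 245 FPKM (ESC) and 244 FPKM (NC), followed by Hdac1, Kdm1a and Hdac2 in ESCs.

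At the 2-fold limit, 7 of 65 members fell (10.8%, against 9.93% of all genes) and 2 rose (3.08%, against 11.1% of all genes). The share that fell was close to the background, and the share that rose was below it. The 7 that fell were Prmt8, Kdm4c, Sirt3, Setd4, Kat6b, Kat2b and Kdm3a, and the 2 that rose were Setd1b and Hdac9. At 1.5-fold, 12 members were lower (18.5%, against 18.8% of all genes) and 7 were higher (10.8%, against 19.3%). The other 46 members (70.8%) stayed within 1.5-fold, as did 61.9% of all genes. Members were expressed at higher levels than most genes, and among genes with a mean of at least 5 FPKM these shares were nearer, at 72.4% of 58 members and 69.2% of 9280 genes. In direction, 27 members (41.5%) were higher and 38 lower in NCs, beside 47.6% of all genes that were higher. With a mean of at least 5 FPKM these shares were 37.9% of members and 44.3% of all genes. After scaling to equal totals, 40 members were higher. That scaling also turned the calls to 7 members up and 5 down, so that 58.3% of the members called were higher in place of 22.2%, while over all genes the share moved from 52.8% to 70.8%. With an upper-quartile scaling, 3 members were called higher and 6 lower (33.3% higher).

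**Figure D1:**
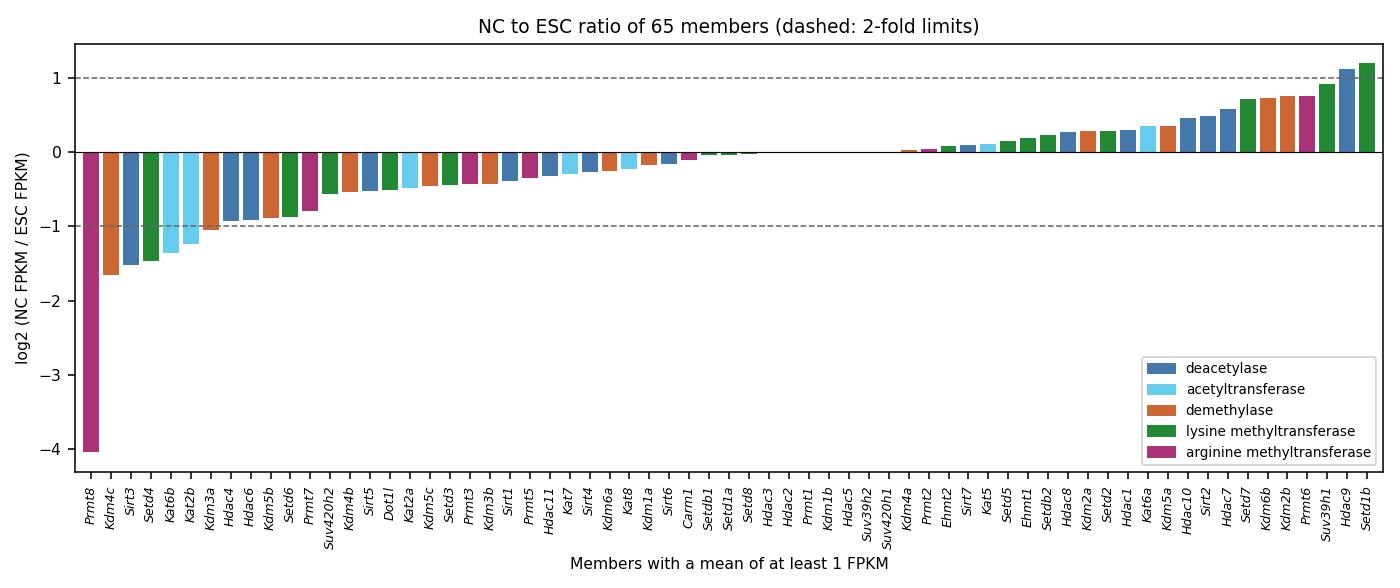
The log2 ratio of NC to ESC FPKM for each of the 65 members with a mean of at least 1 FPKM, in order, with bars coloured by activity and dashed lines at the 2-fold limits. Most bars lie within the limits, 7 pass the lower limit with Prmt8 at -4.04 and 2 pass the upper limit; adding 0.29, as equal totals would, turns 13 of the shorter negative bars positive.

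**Figure D2:**
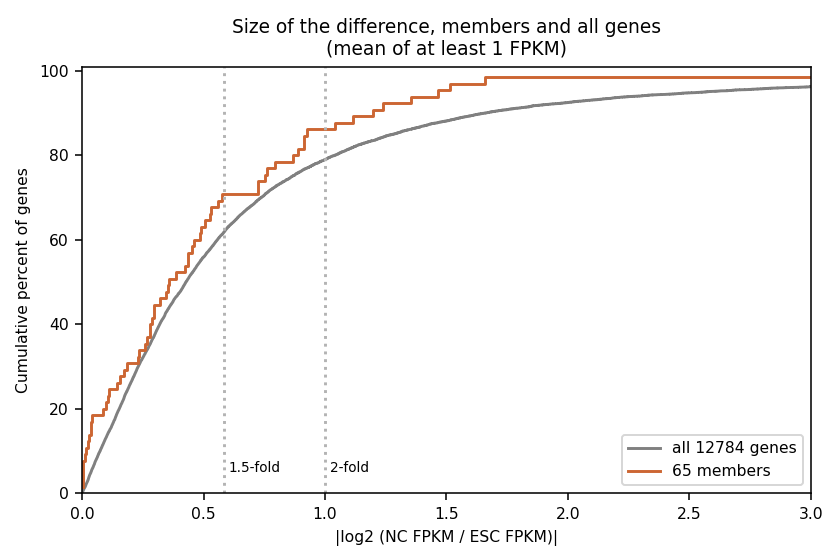
Cumulative percent of genes (vertical axis) against the absolute log2 ratio of NC to ESC FPKM (horizontal axis, shown to 3) for the 65 members and for all 12784 genes with a mean of at least 1 FPKM. At the 1.5-fold line the curves stand at 70.8% for members and 61.9% for all genes.

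The limit itself divided members with similar values. Just past it lay Kdm3a (2.06-fold lower), Hdac9 (2.17-fold higher) and Setd1b (2.29-fold higher), and just short of it lay Hdac4 (1.90-fold lower), Hdac6 (1.88-fold lower), Suv39h1 (1.88-fold higher), Kdm5b (1.85-fold lower) and Setd6 (1.82-fold lower).

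Many of these enzymes come as close paralogs with the same catalytic activity, so the levels were also read as the share of each paralog in its group, which no scaling of a whole condition can alter. Part of the members fell into 18 such groups, and in 4 of them the most abundant paralog in ESCs was no longer the most abundant one in NCs. The groups hold members only. Related genes outside the naming series, such as Jmjd1c (18.2 and 12.4 FPKM) and Uty (6.80 and 6.95 FPKM), are not counted in the shares. Of the H3K9 and H3K36 demethylases Kdm4a, Kdm4b and Kdm4c, Kdm4c provided 50.5% of the summed FPKM in ESCs and 26.5% in NCs, and Kdm4a provided 31.1% and 52.5%. Kdm4c itself fell from 33.6 to 10.6 FPKM (log2 ratio -1.66), Kdm4a was at 20.7 and 21.1 FPKM, and Kdm4b was at 12.2 and 8.46 FPKM. The group thus passed from Kdm4c to Kdm4a while the level of Kdm4a hardly differed.

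The lead also changed between the MYST acetyltransferases Kat6a and Kat6b, of which Kat6b provided 66.4% in ESCs and 37.7% in NCs. Kat6b fell from 21.5 to 8.42 FPKM, and Kat6a was at 10.9 and 13.9 FPKM. Of the H3K9 demethylases Kdm3a and Kdm3b, Kdm3a provided 53.9% in ESCs and 43.3% in NCs. Here both paralogs were lower in NCs, Kdm3a from 29.0 to 14.1 FPKM and Kdm3b at 24.8 and 18.5 FPKM. Of the H3K27 demethylases, X-linked Kdm6a provided 58.3% in ESCs and 41.5% in NCs, with Kdm6a at 14.8 and 12.4 FPKM and Kdm6b at 10.6 and 17.5 FPKM. Neither Kdm6 gene passed the 2-fold limit.

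In the other 14 groups the leading paralog was the same in both conditions. The share of Hdac1 in Hdac1 and Hdac2 went from 60.6% to 65.6%, that of Suv39h1 in Suv39h1 and Suv39h2 from 60.7% to 74.3%, and that of Kdm2b in Kdm2a and Kdm2b from 65.0% to 72.0%. Kdm5b, the leading H3K4 demethylase of its family, went from 65.3% to 54.0%. The remaining leaders held between 57.5% and 99.9% of their group in NCs.

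**Figure D3:**
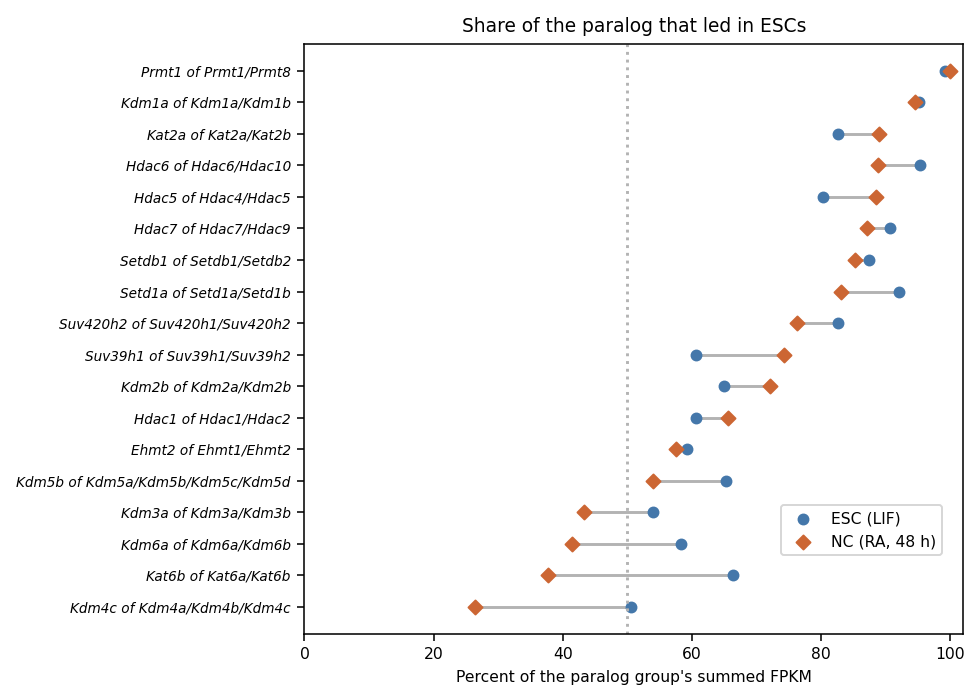
Percent of each paralog group's summed FPKM (horizontal axis) held by the gene that led the group in ESCs, in ESCs (circles) and NCs (diamonds), for 18 groups. Kdm4c, Kat6b, Kdm6a and Kdm3a end below the share of another paralog, and the other 14 leaders kept the largest share of their group.

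The sequence before the annotated start of these genes is given to show what lies upstream of the paralogs that changed places. The runs were taken from RefSeq promoters on GRCm38.p6, up to 250 bases upstream of the start in the direction of the gene, 5′ to 3′. Kdm4c (chr4:74242247-74242496, plus strand) and Kdm4a (chr4:118180044-118180293, minus strand) are the paralogs that exchanged the lead in the KDM4 family. Kdm3a (chr6:71632991-71633167, minus strand, without the bases that GENCODE M21 places in an exon), Kat6b (chr14:21499520-21499769, plus strand) and Kdm6a (chrX:18162325-18162574, plus strand) are the other leaders of ESCs that lost the lead. Capitals mark matches, on either strand, to the nuclear receptor hexamer AGGTCA, the E-box CACGTG, the octamer ATGCAAAT, the CCAAT box, the GC box GGGCGG and TATAAA. The table used here held no entry for Kat6a, Kdm3b and Kdm6b.
Kdm4c: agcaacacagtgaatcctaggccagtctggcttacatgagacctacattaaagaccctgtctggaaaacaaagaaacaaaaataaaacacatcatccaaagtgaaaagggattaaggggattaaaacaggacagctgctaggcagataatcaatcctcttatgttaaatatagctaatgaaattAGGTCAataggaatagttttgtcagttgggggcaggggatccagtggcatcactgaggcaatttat
Kdm4a: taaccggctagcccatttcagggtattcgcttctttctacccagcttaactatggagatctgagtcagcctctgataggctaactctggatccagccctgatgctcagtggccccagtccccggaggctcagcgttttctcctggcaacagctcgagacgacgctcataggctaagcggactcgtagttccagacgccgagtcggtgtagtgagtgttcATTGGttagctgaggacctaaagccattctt
Kdm3a: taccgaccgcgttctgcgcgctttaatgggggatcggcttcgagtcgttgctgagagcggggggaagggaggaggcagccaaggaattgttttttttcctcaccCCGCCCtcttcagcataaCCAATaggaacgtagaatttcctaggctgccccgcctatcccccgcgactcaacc
Kat6b: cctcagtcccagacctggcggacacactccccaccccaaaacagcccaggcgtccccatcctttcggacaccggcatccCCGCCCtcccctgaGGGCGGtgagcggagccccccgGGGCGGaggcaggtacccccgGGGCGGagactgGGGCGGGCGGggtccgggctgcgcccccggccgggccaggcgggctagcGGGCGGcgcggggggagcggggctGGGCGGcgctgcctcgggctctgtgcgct
Kdm6a: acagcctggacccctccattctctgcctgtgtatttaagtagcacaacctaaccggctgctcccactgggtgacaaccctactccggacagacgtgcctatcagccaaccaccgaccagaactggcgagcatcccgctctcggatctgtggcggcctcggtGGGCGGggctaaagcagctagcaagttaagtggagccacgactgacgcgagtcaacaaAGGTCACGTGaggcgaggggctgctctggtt

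Of these runs, Kdm4c and Kdm6a held AGGTCA, which in Kdm6a overlapped the E-box match. The Kat6b run lies within the annotated gene, between exons, and was rich in GC boxes. Over the 56 members with an entry, AGGTCA was present in the 250 bases upstream of 7 (12.5%, against 13.8% of 27025 genes): Ehmt1, Kdm4c, Kdm1a, Kat8, Kat7, Sirt5 and Kdm6a. Direct repeats of it spaced by 2 or 5 bases, forms known to be bound by RA receptors, were found in 0 of 56 members and in 0.00740% of all genes for either spacing. Exact matches are so rare that 0 of 56 cannot show whether the members hold RA receptor sites. The GC box was present upstream of 32 members (57.1%, against 32.9%), the CCAAT box upstream of 27 (48.2%, against 34.5%), and TATAAA upstream of 4 (7.14%, against 13.0%), which were Prmt2, Hdac9, Hdac8 and Kdm5d. CACGTG was present upstream of 6 members (10.7%, against 6.05%) and ATGCAAAT upstream of 0 (against 1.61%). The members' windows had a median GC content of 58.8% against 52% over all genes. These 27025 genes were not filtered by level, whereas 65 of 67 members had a mean of at least 1 FPKM, so the sets are unlike. Some members' windows, such as those of Hdac7 and Prmt8, lie in annotated exons of the gene. Of the 7 members that fell, 1 held AGGTCA, 3 held CCAAT and 3 held GGGCGG, and these matches are a description of the letters only.

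The 18 deacetylases summed to 467 FPKM (ESC) and 464 FPKM (NC), a ratio of 0.992 that lies above 1 under each of the 3 other scalings tried (1.02 to 1.22). Class I, the nuclear catalytic subunits of corepressor complexes, summed to 275 FPKM (ESC) and 307 FPKM (NC). Hdac1, which with Hdac2 serves the Sin3, NuRD and CoREST complexes, was at 139 and 170.4 FPKM. Hdac2 was at 90.2 and 89.4 FPKM, and Hdac3, the enzyme of the NCoR and SMRT corepressors that unliganded RA receptors recruit, was at 42.4 and 42.0 FPKM. Hdac8, a class I enzyme that also acts on cohesin, was at 4.02 and 4.88 FPKM. No class I gene therefore differed by 1.5-fold. For Hdac1, 35.5% of the 50-base words of its transcripts also occur in transcripts of other genes, most often those of Gm10093. Its level therefore depends on how such reads were divided.

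Class IIa deacetylases, which move between nucleus and cytoplasm with signalling and repress MEF2 targets, had almost the same sum (45.1 and 45.5 FPKM) but not the same makeup. Hdac9 rose from 0.660 to 1.43 FPKM (log2 ratio 1.12), from a level that was the lowest of all deacetylases. Hdac7 was at 6.47 and 9.66 FPKM, Hdac5 at 30.4 and 30.5 FPKM, and Hdac4 at 7.49 and 3.94 FPKM. Hdac4 was thus the member of the class with the lower value in NCs, at a log2 ratio of -0.93. Class IIb summed to 50.6 and 28.9 FPKM, since its main gene Hdac6, the X-linked gene of the tubulin deacetylase, was at 48.3 and 25.6 FPKM (log2 ratio -0.91). Hdac10, a polyamine deacetylase, was at 2.36 and 3.25 FPKM. Hdac11, the sole class IV enzyme, was at 8.91 and 7.14 FPKM.

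Among the NAD-dependent sirtuins, Sirt3, the main deacetylase of mitochondria, fell from 17.1 to 5.98 FPKM (log2 ratio -1.51), and the other 6 did not pass the limit. The nuclear Sirt1 was at 18.8 and 14.4 FPKM, and the mainly cytoplasmic Sirt2 at 17.6 and 24.7 FPKM. Sirt2 thus ranked above Sirt1 and Sirt3 in NCs. The mitochondrial Sirt4 and Sirt5 were at 6.99 and 5.80 FPKM and at 4.63 and 3.21 FPKM. Sirt6, an H3K9 deacetylase, was at 13.7 and 12.3 FPKM, and the nucleolar Sirt7 at 8.47 and 9.07 FPKM. The 7 sirtuins summed to 87.2 and 75.5 FPKM, a ratio of 0.865 that becomes 1.06 with equal totals. Sirt3 overlaps exons of Ric8a and Psmd13 on the other strand. Of its 50-base words, 10.6% occur in transcripts of other genes, most often those of Ric8a. Psmd13 was at 115 FPKM (ESC) and 91.2 FPKM (NC), and no row of the table was matched to the symbol Ric8a, so no level is given for it. The strand setting of the counting is not given in the sources used here, and the part of these genes in the Sirt3 value was not tested.

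**Figure D4:**
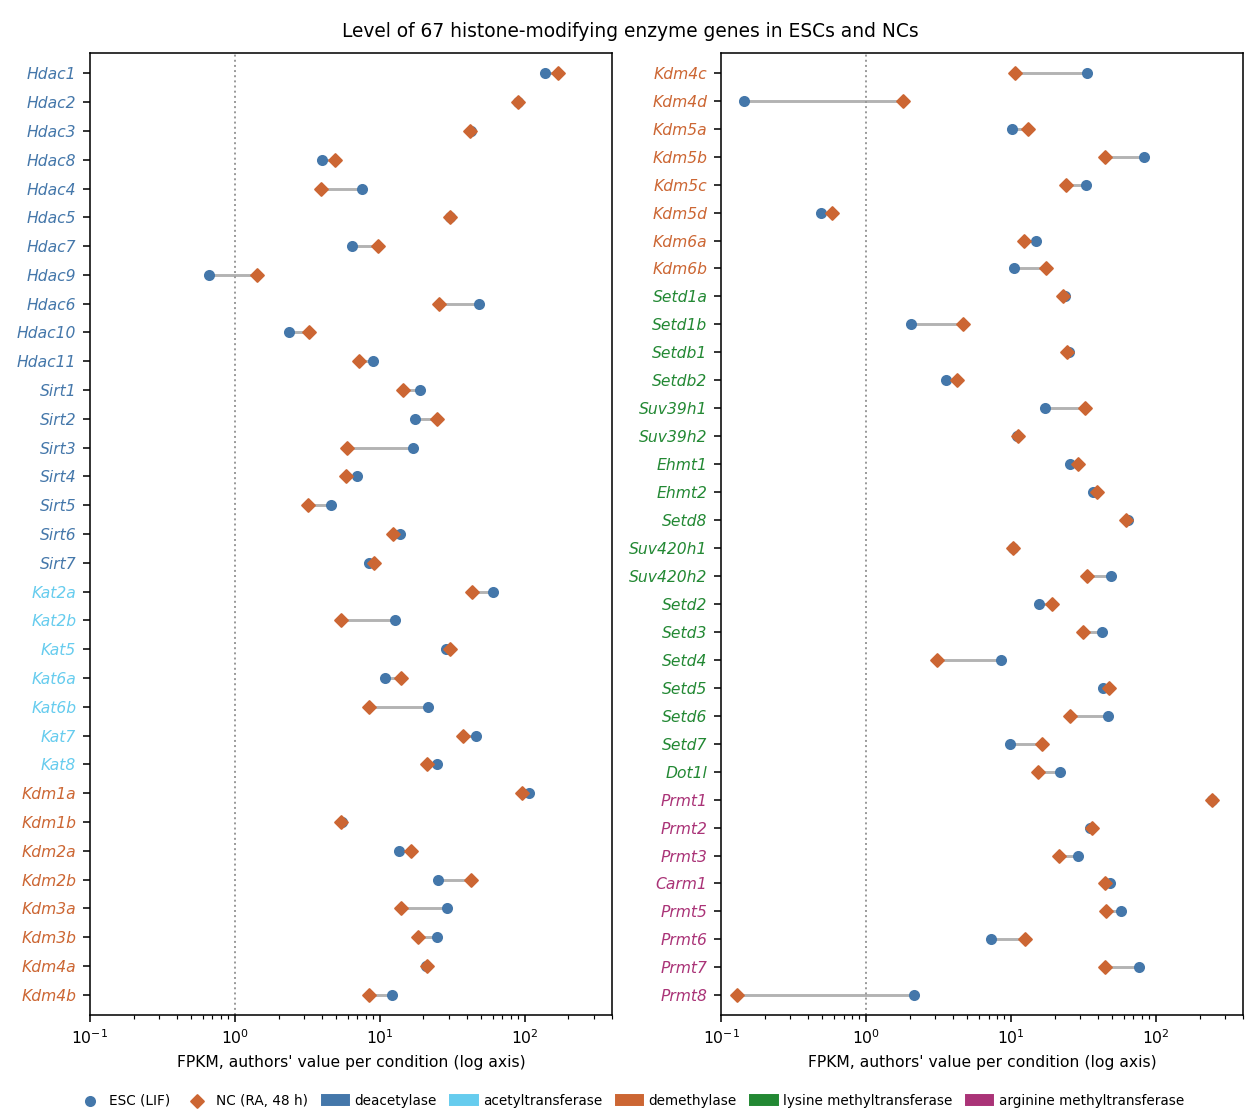
FPKM of all 67 members in ESCs (circles) and NCs (diamonds) on a log axis, with gene names coloured by activity and a dotted line at 1 FPKM. Prmt1, Hdac1, Kdm1a and Hdac2 are the 4 highest in ESCs, Kdm5d lies left of the dotted line in both conditions, and the longest connecting lines are those of Prmt8 and Kdm4d.

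The 7 acetyltransferases summed to 205 FPKM (ESC) and 160.1 FPKM (NC), a ratio of 0.782, with 5 lower and 2 higher, 2 of them past the limit. This was the lowest ratio of the 5 activities, and it stayed below 1 under each scaling (0.959 with equal totals). Kat2a, the acetyltransferase of the SAGA and ATAC coactivator complexes, was at 60.5 and 43.2 FPKM, and its paralog Kat2b fell from 12.7 to 5.39 FPKM (log2 ratio -1.24). The call of Kat2b was lost with equal totals, at -0.95. Of the MYST enzymes, Kat6b fell as described above (log2 ratio -1.36). Kat7, which acetylates H3K14, was at 46.1 and 37.5 FPKM, Kat8, the H4K16 acetyltransferase, at 24.6 and 21.0 FPKM, and Kat5, the enzyme of the Tip60 complex, at 28.4 and 30.7 FPKM. The acetyltransferases that fell, Kat2b and Kat6b, were thus each the partner of a paralog that did not pass the limit.

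The 16 demethylases summed to 423 and 346 FPKM, a ratio of 0.818 that becomes 1.00 with equal totals. The demethylase families did not all differ in the same direction. The KDM3 family, which removes mono- and dimethyl H3K9, and the KDM4 family, which removes trimethyl H3K9 and H3K36, had the lowest ratios of the demethylase families, 0.605 and 0.630, and both stayed below 1 under each scaling (0.742 and 0.772 with equal totals). Kdm4c and Kdm3a were the demethylases that fell. The log2 ratio of Kdm3a was -1.04, and its call was lost with a pseudocount of 1 FPKM, with equal totals and with upper-quartile scaling. Kdm4d, a KDM4 gene known from testis, was listed at 0.145 and 1.79 FPKM, too low to be called. Of its 50-base words, 10.2% occur in other genes, most often in Kdm4dl.

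The H3K4 demethylases were led by Kdm1a, known as LSD1, at 107 and 95.3 FPKM. Its paralog Kdm1b was at 5.44 and 5.42 FPKM. Of the KDM5 family, which removes trimethyl H3K4, Kdm5b was at 82.2 and 44.3 FPKM (log2 ratio -0.89), the X-linked Kdm5c at 33.0 and 24.1 FPKM, and Kdm5a at 10.2 and 13.1 FPKM. The family summed to 126 and 82.1 FPKM, with Kdm5b accounting for most of the difference. By contrast the KDM2 family, which acts on H3K36, summed to 38.6 and 58.7 FPKM, the largest family ratio (1.52). Kdm2b, which also brings a Polycomb complex to CpG islands, was at 25.1 and 42.3 FPKM (log2 ratio 0.75), and Kdm2a at 13.5 and 16.4 FPKM. For Kdm2b, 12.5% of the 50-base words occur in other genes, most often in Rnf34, which was at 28.6 and 22.8 FPKM. The H3K27 demethylase Kdm6b had a log2 ratio of 0.73. Kdm2b and Kdm6b were within 2-fold in the deposited scale and passed it with equal totals (1.05 and 1.02).

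The 18 lysine methyltransferases summed to 457 and 433 FPKM, a ratio of 0.947 that lies above 1 with upper-quartile scaling and equal totals, and 10 of them were higher. Of the H3K9 enzymes, 5 of 6 had the higher value in NCs, and their sum was 119 and 139.8 FPKM. All of them except Suv39h1 stayed within 1.5-fold. Suv39h1, which trimethylates H3K9 at pericentromeric heterochromatin, was at 17.1 and 32.2 FPKM (log2 ratio 0.91), the largest value of a member short of the limit on the higher side, and passed it with upper-quartile scaling (1.01) and equal totals (1.21). Its paralog Suv39h2 was at 11.1 FPKM in both conditions. Ehmt1 and Ehmt2, which form the heterodimer that dimethylates H3K9, were at 25.4 and 28.8 FPKM and at 36.8 and 39.1 FPKM. Setdb1, the enzyme that silences retroelements with Trim28, was at 25.0 and 24.4 FPKM, and Setdb2 at 3.58 and 4.22 FPKM. The H3K9 methyltransferases summed to a ratio of 1.17 and the KDM3 and KDM4 demethylases together to 0.619 (120.4 and 74.5 FPKM), a grouping made after the values were seen. Suv39h1 accounted for most of the first difference, and Kdm4c with Kdm3a for most of the second. With equal totals the ratios of the sums were 1.44 and 0.758. The KDM4 enzymes also act on H3K36. JmjC proteins outside the naming series, such as Phf2 (3.07 and 7.36 FPKM) and Jmjd1c (18.2 and 12.4 FPKM), are not in the sum. Of Suv39h1, 12.2% of the 50-base words occur in other genes, most often in Gm14820.

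Of the H3K4 methyltransferases, Setd1b rose from 2.03 to 4.65 FPKM (log2 ratio 1.20), whereas its paralog Setd1a was at 23.6 and 23.0 FPKM. Setd1a thus provided 92.1% of the pair in ESCs and 83.2% in NCs. Much of Setd1a cannot be told from other annotated genes. Of its 50-base words, 51.2% occur in them, most often in Gm49388 on the same strand. The call of Setd1b was lost with a pseudocount of 1 FPKM, at 0.90. Setd7, which monomethylates H3K4 and many other proteins, was at 9.87 and 16.3 FPKM (log2 ratio 0.72). Setd4 fell from 8.52 to 3.09 FPKM (log2 ratio -1.46).

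The H4K20 enzymes had a ratio of sums of 0.863, which becomes 1.06 with equal totals. Setd8, which monomethylates H4K20, was at 63.7 and 62.6 FPKM, and the enzymes of the higher methylation states, Suv420h1 and Suv420h2, were at 10.4 FPKM in both conditions and at 49.2 and 33.4 FPKM. Setd2, which trimethylates H3K36, was at 15.7 and 19.1 FPKM, and Dot1l, the H3K79 methyltransferase without a SET domain, at 21.9 and 15.4 FPKM. Setd3, known to methylate actin, was at 42.8 and 31.6 FPKM, Setd5 at 43.0 and 47.6 FPKM, and Setd6, which methylates the NF-kappaB subunit RelA, at 46.9 and 25.7 FPKM (log2 ratio -0.87). None of these enzymes passed the 2-fold limit.

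The 8 arginine methyltransferases summed to 501 and 448 FPKM, a ratio of 0.895 that becomes 1.10 with equal totals. Prmt8, a membrane-anchored relative of Prmt1 known from brain, fell from 2.14 to 0.130 FPKM (log2 ratio -4.04), the largest ratio of any member, and 86 of the 12784 genes fell further. With its mean just above 1 FPKM, its ratio rests on low values, and a pseudocount of 1 FPKM brings it to -1.48. Prmt1, the main enzyme of asymmetric arginine dimethylation, had a log2 ratio of -0.01. Prmt5, the main enzyme of symmetric dimethylation, was at 57.6 and 45.3 FPKM, and Prmt7, which makes monomethylarginine, at 76.9 and 44.3 FPKM (log2 ratio -0.79). Carm1, a coactivator of nuclear receptors, was at 48.1 and 44.7 FPKM. Prmt6, which methylates H3R2, was at 7.33 and 12.4 FPKM (log2 ratio 0.76), while Prmt2 was at 35.1 and 36.2 FPKM and the ribosome-associated Prmt3 at 28.8 and 21.3 FPKM.

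All 67 members were placed on GRCm38, the assembly also called mm10, with GENCODE M21, 3 of them through a newer symbol (Setd8, Suv420h1 and Suv420h2). The genes that fell lie at chr6:127689011-127769472 (Prmt8), chr4:74242497-74405860 (Kdm4c), chr7:140863666-140882309 (Sirt3), chr16:93583457-93604063 (Setd4), chr14:21481434-21672478 (Kat6b), chr17:53566861-53672720 (Kat2b) and chr6:71588972-71632990 (Kdm3a). Those that rose lie at chr5:123142193-123168629 (Setd1b) and chr12:34047580-34917095 (Hdac9). The called members thus lie apart from each other, with at most 2 on a chromosome. Within 500 kb of each other lie 4 pairs of members. On chromosome 5, Kdm2b and Setd1b lie 152 kb apart and had log2 ratios of 0.75 and 1.20. On the X chromosome, Hdac6 and Suv39h1 lie 113 kb apart and had opposite ratios of nearly equal size, -0.91 and 0.91. Of all members, 19 shared more than 5% of their 50-base words with another gene's transcripts and 25 overlapped an exon on the other strand, so their levels depend on how the authors' counting divided such reads. Among them, Kdm1b shared 8.16%, most often with Dek (85.5 and 127 FPKM). Kat5 shared 9.83%, most often with Rnaseh2c (56.5 and 77.6 FPKM), and Carm1 17.4%, most often with Yipf2 (33.0 and 34.4 FPKM). Kdm3b, which took the lead from Kdm3a, shared 24.1%, most often with Gm26538.

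The partners of these enzymes, and related enzymes outside the naming series, were read from 9 lists of 164 genes, 155 of which had a mean of at least 1 FPKM. These lists, like the members, were chosen with earlier results of these data known. Of the 155 genes, 10 rose (6.45%, against 11.1% of all genes) and 9 fell (5.81%, against 9.93%), and their median log2 ratio was -0.08, beside -0.04 for the members and -0.04 for all genes. Of 29 subunits of deacetylase complexes, 2 rose: Mbd2, a methyl-CpG binding subunit of NuRD, from 7.89 to 22.8 FPKM, and Chd3, a NuRD helicase, from 3.82 to 8.10 FPKM. None of the 29 fell, and their median log2 ratio was -0.02. Of 34 subunits of acetyltransferase complexes, the SAGA subunit Tada1 rose from 2.97 to 10.7 FPKM, and Phf15, a subunit of the Kat7 complex also named Jade2, fell from 3.63 to 1.66 FPKM. Of 10 other acetyltransferases, Hat1, which acetylates new histone H4, fell from 362 to 178 FPKM, and Esco2, which acetylates cohesin, fell from 57.3 to 15.5 FPKM.

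Among 13 other JmjC proteins past the filter, Phf2 rose from 3.07 to 7.36 FPKM and Jarid2, a subunit of the Polycomb complex that methylates H3K27, fell from 52.4 to 22.6 FPKM. Of 24 other SET methyltransferases, 3 rose and 4 fell. The H3K36 methyltransferase Whsc1 rose from 13.4 to 37.6 FPKM, Mll5 from 4.87 to 11.4 FPKM, and Mecom, whose rows were summed, from 0.211 to 4.06 FPKM. Among those that fell, Prdm14, a regulator of pluripotency, went from 4.88 to 0.217 FPKM, the H3K27 methyltransferase Ezh1 from 26.4 to 8.35 FPKM, and Prdm1 from 3.98 to 1.74 FPKM. Prdm1 lay outside the naming rule and was named after its values were seen. The list of 11 COMPASS subunits covered the complexes that hold Setd1a and Setd1b and also the related MLL complexes. It included 3 genes with higher values and 0 past the limit. Its median log2 ratio was -0.27, or 0.02 with equal totals. Among 14 partners and readers of the H3K9 enzymes, Atf7ip2, a partner of Setdb1, fell from 12.6 to 4.67 FPKM, and the median log2 ratio was -0.35.

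**Figure D5:**
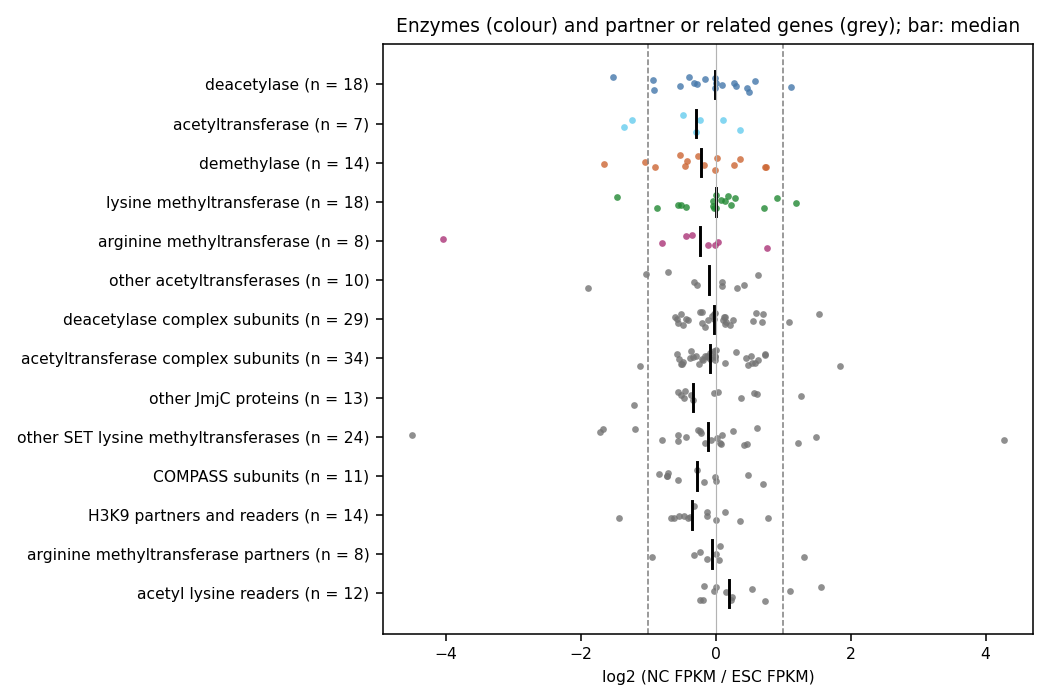
The log2 ratio of NC to ESC FPKM (horizontal axis) for each gene past the filter, for the 5 enzyme activities (colours) and the 9 lists of partner or related genes (grey), with a black bar at each median and dashed lines at the 2-fold limits. Most points of every list lie within the limits, and the farthest are Prdm14 at -4.49, Prmt8 at -4.04 and Mecom at 4.27.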

How the data were processed

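RNA-seq was analysed for 3 ESC and 3 NC samples. The authors aligned reads to mm10 with TopHat 2.0.8 and Bowtie 2.1.0, assembled transcripts with Cufflinks 2.0.2 and Cuffmerge, and compared conditions with Cuffdiff. The deposited table holds 1 FPKM value per gene and condition, made by the authors over the replicates. The NC column is headed FPK, which was read as FPKM. The authors' fold changes, test statistics, p-values, q-values and significance calls were not used. The annotation release, the Cuffdiff normalization option and the strand setting are not given in the sources used here.

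Ratios were computed without a pseudocount, for rows whose 2 condition values had a mean of at least 1 FPKM, and called at 2-fold, with 1.5-fold beside it. The rule for members reads gene names only, but this rule, all gene lists and the tests were chosen with earlier results of these data known. Every member is named, and of each list up to the 3 largest rises and 3 largest falls past the limit. A gene that the rule would name is left out of the text. The computation was tested on simulated data. The alternatives were pseudocounts of 0.1 and 1 FPKM, no filter and a mean of at least 5 FPKM, centring, equal totals, upper-quartile scaling, summing rows of the same gene name, and limits of 1.5-fold and 3-fold. Joint sums of KDM3 with KDM4 genes were added after the values were seen. Positions and 50-base words came from GENCODE M21 on GRCm38, and promoters from RefSeq on GRCm38.p6, with entries for 56 members. Protein identity of paralogs was planned but not computed, because no protein sequences were used here. Python 3.11.15, numpy 2.4.6, pandas 2.3.3 and matplotlib 3.10.9 were used.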

Additional observations from a re-analysis of the deposited data

How the results depend on the processing

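The count of 7 members that fell stayed within 1.5 times of its value under every pseudocount, filter and scaling tried, and was 12 at 1.5-fold and 2 at 3-fold. The count of 2 members that rose was 0 with a pseudocount of 1 FPKM, 0 with a mean of at least 5 FPKM, 0 at 3-fold, 7 at 1.5-fold and 7 with equal totals. The median log2 ratio of the members was -0.04 and became 0.26 with equal totals, as did that of all genes. Over all genes, 1419 rose, against 2947 without a filter, 634 with a mean of at least 5 FPKM, 2471 at 1.5-fold and 765 at 3-fold, and 1270 fell, against 2403, 734, 2400 and 619. A pseudocount of 1 FPKM brought Hdac9 (0.55), Setd1b (0.90) and Kdm3a (-0.99) within the limit, equal totals did so for Kat2b (-0.95) and Kdm3a (-0.75), and upper-quartile scaling for Kdm3a (-0.95). Without a filter Kdm4d was called higher. Equal totals called Suv39h1 (1.21), Prmt6 (1.06), Kdm2b (1.05), Kdm6b (1.02) and Setd7 (1.02) higher. Equal totals shifts all log2 ratios by 0.29, so these calls follow from its construction. Centring turned the direction of 5 members and upper-quartile scaling that of 7, all with log2 ratios of -0.04 or nearer to 0. No call was reversed under these alternatives. The table gives 1 value per condition, so the spread between samples, the depth and any single sample's part in a value are unknown. Leaving out each replicate was not run for the same reason. No paired analysis was possible because the table holds no value per replicate.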

Other observations

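Proteins that read acetylated lysine formed a small list, also chosen with earlier results of these data known. Of 12 such readers past the filter, 8 had the higher value in NCs, as did 47.6% of all genes. The 8 include Brwd1, at 29.2 FPKM in both conditions. At the 2-fold limit 2 rose (11.1% of all genes did) and 0 fell (9.93% of all genes did). Their median log2 ratio was 0.20, beside -0.04 for all genes. Brdt, a bromodomain protein known from testis, rose from 0.663 to 1.95 FPKM, and Mllt3, a YEATS-domain subunit of the super elongation complex, rose from 2.79 to 6.02 FPKM. Both are low values, and the list's summed level was 369.7 FPKM (ESC) and 391 FPKM (NC).

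Of 8 partners of the arginine methyltransferases, Tdrd3, a Tudor-domain reader of methylarginine, rose from 2.70 to 6.68 FPKM and 0 fell. Of the COMPASS subunits that serve Setd1a and Setd1b, the shared core subunits Ash2l, Dpy30, Wdr5 and Rbbp5 had log2 ratios of -0.84, -0.72, -0.70 and -0.56. The subunits particular to these complexes, Wdr82 and Cxxc1, had log2 ratios of -0.71 and 0.01. All of them lay within the 2-fold limit, and they were named after their values were seen. Ash2l was at 199 and 111 FPKM and Wdr5 at 87.5 and 53.8 FPKM, while Men1, a subunit of the related MLL complexes, was at 24.0 and 33.6 FPKM.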
